A study of Mus musculus with 19 samples.

Results

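Nestin-expressing progenitors (NEPs) were compared with granule neuron progenitors (GNPs) of the mouse cerebellum, gene by gene and by pathway. Of the 19 arrays of the series, 8 entered the comparison: the 4 whose titles begin with NEP and the 4 whose titles begin with GNP, leaving out the tumor arrays. By the labels, both groups were C57BL/6 cells taken straight from the cerebellum, with no culture and no treatment, and differ in the marker they carry, Nestin for NEPs and Math1 (the gene Atoh1) for GNPs. The labels give no age, sex, reporter, sorting gate or pooling of animals, and nothing says that the arrays of a group came from separate animals, so the p-values below measure only the spread between these arrays. The titles of all 8 share a number prefix that the other arrays of the series do not have. The design text gives the aim of these arrays as finding what sets the expression of NEPs apart.

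GNPs are the dividing cells of the external granule layer that make the granule neurons, and Atoh1 is the transcription factor that specifies them. Nestin is an intermediate filament of neural stem cells and radial glia. The radial glia of the cerebellum give rise to Bergmann glia, which guide migrating granule neurons, and to astrocytes. Mature glia of this kind clear glutamate, GABA, glycine and potassium from the space around synapses, exchange water and bicarbonate, and supply neurons with lipoproteins. Dividing neuronal progenitors are known instead for cell cycle and nucleotide synthesis genes and for the first channels, receptors and adhesion proteins of the neurons they become.

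A value is the log2 signal of 1 probe set per gene, the one with the highest mean over the series, so a difference of 1 is 2-fold. Read instead from the mean of all its probe sets, each of the 210 genes named here and testable that way kept its direction and call, but 56 had differences smaller by over 1.5 times. A gene is called here at a Benjamini-Hochberg adjusted p below 0.05 in limma over the 8 arrays, and every difference is NEP minus GNP. Of 18193 genes with a probe set of their own, 11512 reached the array median on at least 4 of the 8 arrays and were tested. In NEPs 2939 genes (25.5%) were called higher and 4172 (36.2%) lower, and 1649 (14.3%) were called at least 2-fold higher and 941 (8.17%) at least 2-fold lower. These shares are the background for every count below, and the median difference of all genes tested was -0.13. The NEP and GNP arrays did not overlap for 6443 of the 7111 genes called. That held for 1628 of those at least 2-fold higher and 927 of those at least 2-fold lower. A lack of overlap is thus usual for a called gene. Of the genes called at least 2-fold higher, 511 lay on average below the array median in GNPs, and 91 of those lower did so in NEPs. The array median lay between 2.44 and 2.57 on the 8 arrays. A level below it is called dim here, and a difference from such a level is a fold of array signal. Among others, Gria1, Ptf1a, Grm3, Gabrb1, Neurog2 and Dll1 were dim on average in GNPs, and Kcns2, Chrnb4 and Insm2 in NEPs. Their differences below are such folds. Signals are compared between arrays for a gene and not between genes.

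The labels were checked against Nestin and Math1 themselves. Nes read 5.78, 5.65, 6.06 and 6.01 on NEP arrays 1 to 4 and 3.32, 4.01, 3.41 and 3.23 on GNP arrays 1 to 4. It was higher on every NEP array than on any GNP array. Atoh1 read 2.85, 2.38, 5.67 and 4.90 on NEP arrays and 8.77 to 8.96 on GNP arrays, and the homeobox gene Barhl1, which acts beside it in the granule lineage, 2.33, 2.31, 5.43 and 4.47 against 8.58 to 8.92. Neither group overlapped the other for either gene, but NEP arrays 3 and 4 lay nearer to GNPs than arrays 1 and 2 did. Tnc, the matrix protein tenascin C of radial glia, read 10.23, 10.34, 10.62 and 10.91 against 1.70 to 2.65 and was even over the NEP arrays. The 4 genes differed by 2.38 (SE 0.18, adjusted p = 1.26e-05), -4.90 (SE 0.67, adjusted p = 0.00038), -5.12 (SE 0.67, adjusted p = 0.00029) and 8.52 (SE 0.23, adjusted p = 3.27e-08), with n = 4 in each group.

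The NEP arrays fell into 2 pairs. Microglia and macrophage markers had medians of 8.71, 8.70, 3.54 and 2.04 on NEP arrays 1 to 4 and of 1.86 to 2.08 on GNP arrays. On NEP array 4, 14 of the 19 markers lay below the array median, and on array 3 6 did, against 0 on arrays 1 and 2. Pericyte, fibroblast and meningeal markers (8.88, 8.92, 5.26 and 4.26 against 2.38 to 3.03), oligodendrocyte lineage markers (9.33, 9.36, 6.95 and 6.62 against 2.74 to 3.26) and endothelial markers (5.18, 5.41, 3.19 and 3.94 against 2.05 to 2.52) were also highest on arrays 1 and 2. Differentiating neuron markers went the other way, at 6.59, 6.46, 8.43 and 7.80 against 10.10 to 10.15. Bergmann glia and astrocyte markers (9.94, 10.07, 10.04 and 10.16) and neural stem cell and radial glia markers (9.22, 9.19, 9.31 and 9.63) were level over the 4 NEP arrays. In bulk RNA, fewer cells of a type and less RNA of it per cell cannot be told apart, and the part of other cell types in a given gene's difference was not tested. Counts at 2-fold are therefore given mostly also with NEP arrays 3 and 4 only against the 4 GNP arrays. These 2 arrays are among the 4, so this is no independent repeat. The filter limits the check as well. A gene below the array median on all 4 GNP arrays was tested only if it reached the median on all 4 NEP arrays. A gene is said to hold when it is called in the same direction, by at least 2-fold, in both fits. The named genes called at least 2-fold held, except Cnr1, En1, Gjb6, Gpc2, Ifitm1, Mthfd2, Neurod2, Otx2, Pdk1, Ppat and Ugt8a, whose values are given where they are described. In all, 1423 (12.4% of the genes tested) held higher and 688 (5.98%) held lower, which is 86.3% and 73.1% of those called at least 2-fold.

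**Figure D1:**
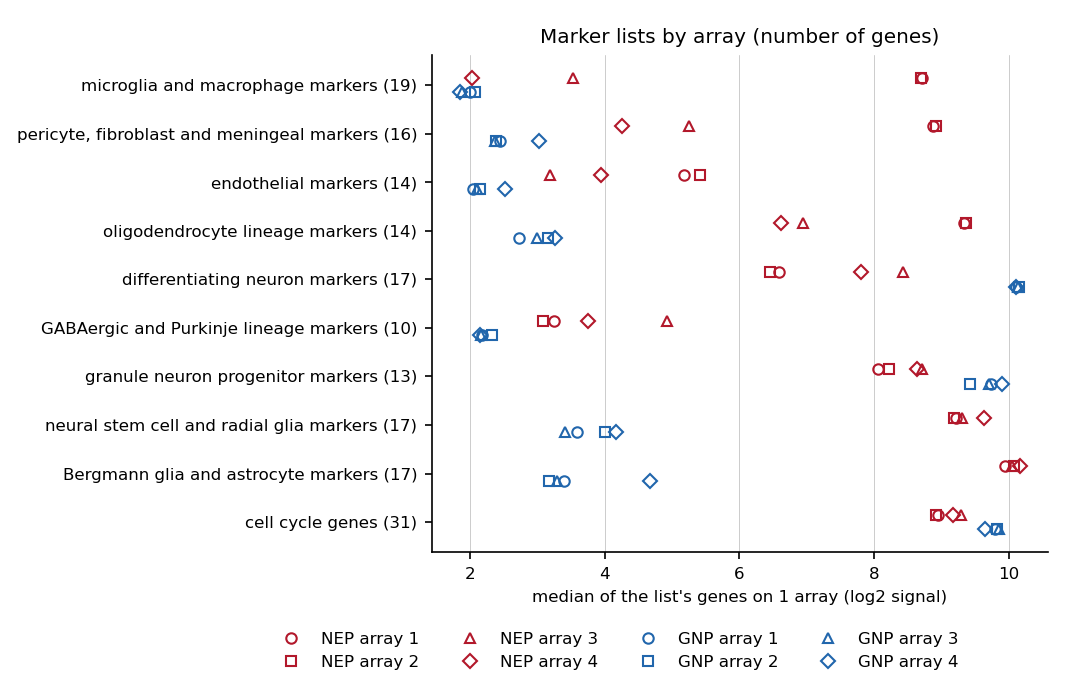
Median log2 signal (x axis) of each marker list (y axis, with its number of genes on the array) on each array, NEP arrays in red and GNP arrays in blue, with a symbol per array number. NEP arrays 1 and 2 stand at 8.71 and 8.70 for microglia markers and arrays 3 and 4 at 3.54 and 2.04, while the Bergmann glia markers of all 4 lie between 9.94 and 10.16.

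Transporters were called higher in NEPs more often than lower. Of 214 solute carriers tested, of 356 on the array, 66 (30.8%) were called at least 2-fold higher and 8 (3.74%) at least 2-fold lower, and 51 and 7 held. Their median difference was 0.27, and 0.20 on NEP arrays 3 and 4, against -0.13 and -0.097 for all genes.

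Glutamate carriers of the Slc1 family rose in 4 of 5 tested members, each by at least 2-fold, and all 4 held. Slc1a3, the glutamate transporter of Bergmann glia, read 10.74, 10.98, 10.93 and 11.14 on NEP arrays and 4.40, 4.71, 4.48 and 5.18 on GNP arrays. No NEP array came near a GNP array, and the difference was 6.26 (SE 0.18, adjusted p = 3.75e-08). Slc1a2, the other astrocyte glutamate transporter, was already high in GNPs (8.73 to 9.17) and stood at 10.64 to 11.12 in NEPs, a difference of 1.85 (0.993 over the mean of all its probe sets). Slc1a4, a carrier of serine and other neutral amino acids, rose by 2.26. Slc1a1, the neuronal glutamate transporter, read 8.54, 8.44, 6.25 and 6.72 against 3.46 to 3.89, so its rise of 3.81 was 2.80 on arrays 3 and 4.

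Carriers of inhibitory transmitters rose beside them. The GABA transporter Slc6a11 read 8.29, 8.65, 8.42 and 8.51 on NEP arrays and 2.42 to 2.95 on GNP arrays, and the glycine transporter Slc6a9 7.69, 7.64, 7.38 and 7.56 against 3.24 to 3.48. Both were even across the NEP arrays, with differences of 5.82 (SE 0.13, adjusted p = 1.85e-08) and 4.20 (SE 0.10, adjusted p = 2.14e-08). Slc6a20a, a carrier of proline and related amino acids, was not even: it read 8.34, 8.57, 3.76 and 3.02, and its difference of 4.29 shrank to 1.76 on arrays 3 and 4. Slc6a15, a neutral amino acid transporter of neurons, fell by 2.30 on the log2 scale. Among amino acid exchangers, Slc7a10 (neutral amino acids, 4.76) and the glutamine transporter Slc38a3 (4.32) led 7 of 24 called at least 2-fold higher, of which 5 held.

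Ion and metal carriers moved the same way. Of 20 bicarbonate, sodium-proton, sodium-calcium and cation-chloride carriers tested, 10 (50%) were called at least 2-fold higher and 0 at least 2-fold lower, and 7 held. The sodium bicarbonate cotransporter Slc4a4 read 9.86, 9.84, 9.75 and 9.89 against 3.83, 3.12, 3.75 and 3.74, a difference of 6.22 (SE 0.16, adjusted p = 2.41e-08). It varied less over the NEP arrays than over the GNP arrays. The potassium chloride cotransporter Slc12a4 rose by 2.43. Among metal carriers, Slc39a8 and Slc39a12, which import zinc, rose by 4.43 and 3.24, and Slc39a11 of the same family fell by 1.65 on the log2 scale. The iron exporter Slc40a1 read 8.32, 8.31, 5.33 and 6.10 against 2.36 to 3.02, so that its difference was 4.45 over all NEP arrays and 3.15 on arrays 3 and 4.

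Pumps and the water channel gave some of the largest differences. Aqp4, the water channel of astrocyte end feet, read 11.37, 11.48, 11.01 and 11.35 on NEP arrays and 2.09, 2.10, 2.12 and 4.67 on GNP arrays. GNP array 4 stood above the other GNP arrays for Aqp4 but far below any NEP array, and the difference was 8.56 (SE 0.55, adjusted p = 4.24e-06). It was the only aquaporin tested. The sodium pump beta subunits Atp1b2 (10.29, 10.44, 9.68 and 9.82 against 5.23 to 5.36) and Atp1b1 (10.35, 10.47, 10.51 and 10.79 against 5.57 to 6.32) rose by 4.75 and 4.51. Atp1b3, the third tested subunit, fell by 0.56 on the log2 scale. The calcium pump Atp2b2, a plasma membrane pump of neurons, fell by 2.88 on that scale.

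Organic anion carriers also leaned to NEPs. Of 15 organic anion and cation carriers tested, 8 were called at least 2-fold higher and 2 lower, with 7 and 2 holding. Slco4a1 rose by 4.25, and Slco1c1, which carries thyroid hormone, by 3.95, while Slco5a1 and Slco1a4 fell by 2.39 and 1.70 on the log2 scale. Of 28 ABC transporters tested, 11 were called higher and 8 lower, with a median of -0.077 against -0.13 for all genes. By at least 2-fold it was 7 higher (25%) and 2 lower, and 6 and 2 held. Abca1, the cholesterol exporter, rose by 5.42 and Abcb6 by 3.19. Abcc8, the sulfonylurea receptor subunit of potassium channels in neurons, fell by 1.79 on the log2 scale. Abcc9, the related subunit of vascular mural cells, rose by 3.72 (2.58 on arrays 3 and 4).

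Few transporters were higher in GNPs by at least 2-fold, 12 of 277 tested (4.33%, against 8.17% of all genes), of which 11 held. At any size 49 (17.7%, against 36.2%) were called higher in GNPs. Slc29a1, a nucleoside transporter, read 5.79, 5.61, 5.43 and 5.32 on NEP arrays and 9.05, 9.14, 9.05 and 8.79 on GNP arrays, and both groups were tight. Its difference was -3.47 (SE 0.13, adjusted p = 1.32e-07), and -3.63 on arrays 3 and 4. Slc17a6, the vesicular glutamate transporter of immature granule neurons, read 2.09, 2.27, 6.82 and 4.72 against 8.20 to 8.49. It was lowest on NEP arrays 1 and 2, and its difference of -4.41 was -2.62 on arrays 3 and 4. Mitochondrial carriers did not lean as a list: 8 of 38 were called higher and 9 lower, with a median of -0.063. Within it Slc25a18, the mitochondrial glutamate carrier, read 8.84, 8.73, 8.58 and 9.31 against 2.38 to 2.60 and rose by 6.41, and Slc25a20, which brings acylcarnitine into mitochondria, by 1.15.

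Ion channels went both ways, and each way in a larger share than genes at large. Over 121 channel genes tested, 33 (27.3%) were called at least 2-fold higher and 23 (19%) at least 2-fold lower. Over all genes the shares were 14.3% and 8.17%. Of these calls 31 and 21 held.

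Glutamate receptor subunits went both ways. Gria1, a subunit of AMPA receptors, read 8.69, 8.73, 9.12 and 9.58 on NEP arrays and 1.33, 1.42, 1.55 and 1.84 on GNP arrays, a difference of 7.49 (SE 0.21, adjusted p = 3.75e-08). Gria2, the subunit that makes AMPA receptors impermeable to calcium, read 8.03, 7.96, 8.15 and 8.36 against 9.18, 9.34, 9.27 and 9.76. It was lower on every NEP array than on any GNP array, with a difference of -1.26 (SE 0.15, adjusted p = 0.00016). Bergmann glia are known for AMPA receptors that lack this subunit, but the Gria2 signal stayed far above the array median on every NEP array. Gria3 and the NMDA receptor subunit Grin3a rose by 2.32 and 3.41, and the kainate receptor subunit Grik2 fell by 2.57 on the log2 scale. Of the 11 subunits tested, 6 were called at least 2-fold higher and 2 lower, and all of them held.

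The proteins that escort AMPA receptors split too. Cacng5 and Cacng4, which the channel list holds as calcium channel gamma subunits and which bind AMPA receptors, read 8.91, 8.78, 8.89 and 9.49 against 2.45 to 2.66 and 9.15, 9.39, 9.54 and 9.68 against 4.40 to 4.90. They differed by 6.48 (SE 0.16, adjusted p = 2.14e-08) and 4.78 (SE 0.16, adjusted p = 6.81e-08). Cacng2, the stargazin of granule neurons, read 4.19, 3.57, 6.45 and 5.55 against 8.57, 8.55, 8.77 and 8.77 and differed by -3.73 (SE 0.56, adjusted p = 0.000608). Its NEP values did not reach the GNP values on any array but were higher on arrays 3 and 4, where the difference was -2.66. Of the pore and accessory subunits of neuronal calcium channels, the N-type channel gene Cacna1b fell by 3.28 and Cacna2d1 by 3.40 on the log2 scale. The calcium channel list, gamma subunits included, went both ways. Of its 17 genes tested, 5 (29.4%, against 14.3% of all genes) were called at least 2-fold higher. At least 2-fold lower were 3 (17.6%, against 8.17%), and all of these calls held.

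Of 7 GABA-A and glycine receptor subunits tested, 5 were called higher, 3 of them by at least 2-fold and all of these holding, and 1 lower. Gabrb1 and Gabrg1, subunits of GABA-A receptors, read 8.12, 8.05, 8.03 and 8.16 against 1.83 to 2.35 and 6.21, 6.77, 6.81 and 6.77 against 1.36 to 1.81. Their differences were 5.98 (SE 0.12, adjusted p = 9.6e-09) and 5.003 (SE 0.16, adjusted p = 6.69e-08). The ATP-gated channel P2rx7 read 6.82, 6.72, 6.51 and 6.37 on NEP arrays and 2.12 to 2.46 on GNP arrays, and its difference of 4.37 was 4.20 on arrays 3 and 4. The list of nicotinic, serotonin and ATP-gated channels had 6 genes tested, 2 called at least 2-fold higher, both ATP-gated, and 4 at least 2-fold lower, all nicotinic. Chrna3 and Chrnb4, subunits that assemble together into a nicotinic acetylcholine receptor, read 2.34, 2.37, 3.99 and 3.82 against 7.36 to 7.54 and 1.92, 1.71, 1.82 and 2.49 against 5.63 to 6.26. They fell by 4.30 and 3.86 on the log2 scale, and the nicotinic subunits Chrnb2 and Chrna7 by 2.21 and 1.70, each holding on arrays 3 and 4. Over the mean of all its probe sets the difference of Chrna7 was -0.93.

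Potassium channels also went both ways. Kcnj10, the inward rectifier with which astrocytes take up potassium, read 6.79, 6.68, 6.38 and 6.85 on NEP arrays and 1.72 to 2.22 on GNP arrays, a difference of 4.79 (SE 0.15, adjusted p = 5.02e-08). Kcnj6 and Kcnj3, inward rectifiers of neurons that open through G proteins, fell by 2.56 and 3.11 on the log2 scale. Of 15 voltage-gated potassium channel alpha subunits tested, 7 (46.7%) were called at least 2-fold lower in NEPs and 6 of these held, while 2 (Kcna2 and Kcnq3) were called at least 2-fold higher. Over the mean of all its probe sets Kcnq3 differed by 0.70. Kcns2, a modulatory subunit, read 1.17, 1.19, 2.38 and 2.09 against 6.31 to 6.69, and Kcnc1, a channel of fast-firing neurons, 2.33, 2.94, 3.75 and 2.92 against 6.21 to 6.86. Kcns2 fell by 4.76 and Kcnc1 by 3.47, and the leak channel Kcnk1 by 2.60, on the log2 scale.

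Of 20 anion channels tested, 5 were called at least 2-fold higher and 1 lower, and all of them held, though without GNP array 4, or without NEP array 4, 0 were lower. Ttyh1, of a family of anion channels and a marker of radial glia, read 9.48, 9.78, 9.85 and 9.72 against 2.97, 2.58, 3.35 and 3.61, with a difference of 6.58 (SE 0.21, adjusted p = 6.64e-08). The calcium-activated chloride channel Ano1 was higher on NEP arrays 3 and 4 than on 1 and 2 (4.18, 3.79, 5.74 and 5.58 against 1.66 to 2.18). The astrocyte connexin Gja1 stood high in both groups (10.71 to 11.32 and 9.43 to 9.56) and differed by 1.55. Gjb6, another connexin of astrocytes, read 6.74, 7.33, 2.71 and 2.89 against 1.67 to 2.15, so it was high on NEP arrays 1 and 2 only. Its difference of 3.02 was called over the 8 arrays (adjusted p = 0.0331) but not when any 1 of GNP arrays 1 to 4, NEP array 1 or NEP array 2 was left out (adjusted p from 0.0611 to 0.0808), and it was 0.90 on arrays 3 and 4.

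**Figure D2:**
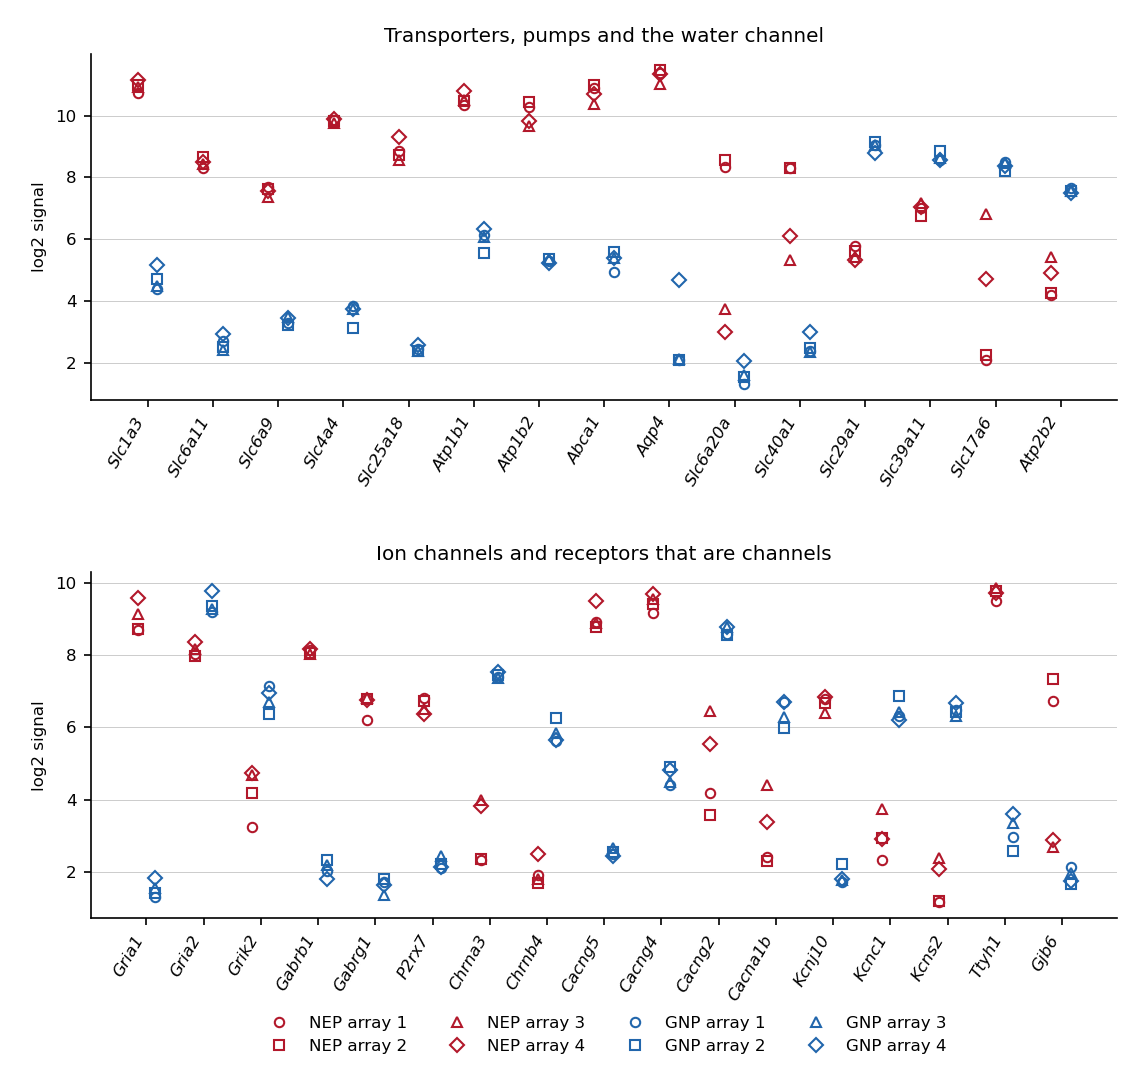
Log2 signal (y axis) on each array of the transporters and channels described (x axis), NEP arrays in red and GNP arrays in blue, a symbol per array number; levels are comparable between arrays for a gene and not between genes. For Slc1a3, Slc4a4, Gabrb1 and Kcnj10 the groups lie over 4 log2 units apart, while Slc6a20a, Slc40a1, Slc17a6 and Gjb6 split NEP arrays 1 and 2 from 3 and 4.

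Metabolism lists differed in direction. Of 465 genes tested 105 (22.6%) were called at least 2-fold higher and 28 (6.02%) lower, and 90 and 20 held. Among lists with 15 or more genes tested, fatty acid oxidation and lipoprotein handling had no gene called lower, and nucleotide synthesis none called higher. In fatty acid oxidation, 24 of 31 tested genes (77.4%, against 25.5% of all genes) were called higher and 0 lower. By at least 2-fold it was 11, and all 11 held. The list's median was 0.69, and 0.65 on arrays 3 and 4. Cpt1a, the enzyme that commits fatty acids to oxidation in mitochondria, read 7.55, 7.26, 6.48 and 7.07 on NEP arrays and 3.11, 3.10, 3.19 and 3.65 on GNP arrays. All NEP arrays lay above all GNP arrays, by 3.83 on average (SE 0.23, adjusted p = 2.67e-06). Acsbg1, an acyl-CoA synthetase of glia, rose by 4.92, the acyl-CoA thioesterase Acot1 by 3.63, and Acadl, a dehydrogenase of the oxidation cycle, by 2.22.

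In the brain glycogen is stored mainly in astrocytes. Genes of glycogen metabolism and gluconeogenesis rose in 10 of 15 tested genes (66.7%, against 25.5% of all genes) and fell in 4 (26.7%, against 36.2%). By at least 2-fold 7 were higher, all holding. Ppp1r3c, which brings protein phosphatase to glycogen, read 6.04, 6.06, 5.24 and 5.89 against 1.80 to 2.26. The glycogen primer glycogenin (Gyg) and the phosphorylase Pygb rose by 2.84 and 2.42. Pcx, the pyruvate carboxylase with which astrocytes refill the citric acid cycle, read 8.55, 8.39, 8.78 and 8.98 against 4.84 to 5.39 and rose by 3.51 (SE 0.16, adjusted p = 5.13e-07). In glycolysis 8 of 16 genes (50%, against 25.5% of all genes) rose and 1 (6.25%, against 36.2%) fell. Among them Aldoc, the brain aldolase also known as zebrin, read 9.69, 9.87, 10.04 and 10.16 against 2.50 to 3.40 and rose by 7.02 (SE 0.20, adjusted p = 3.75e-08). Pfkfb3, which stimulates glycolysis, rose by 2.35.

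Genes of lipoproteins and cholesterol handling rose in 14 of 17 tested genes and fell in 0, with a median of 3.55 (3.49 on arrays 3 and 4). By at least 2-fold it was 12, of which 10 held. Apoe, the main lipoprotein of the brain, read 10.94, 10.94, 9.76 and 10.08 on NEP arrays and 4.06, 3.82, 4.24 and 4.96 on GNP arrays, a difference of 6.16 (SE 0.33, adjusted p = 1.46e-06). Lrp4, of the lipoprotein receptor family, rose by 4.77. Apod, an apolipoprotein of the lipocalin family, read 9.91, 10.17, 6.84 and 5.06 against 1.85 to 3.53, and was thus far higher on NEP arrays 1 and 2. Its difference was 5.54 over all NEP arrays and 3.49 on arrays 3 and 4. Cholesterol synthesis did not follow: 5 of 19 genes (26.3%, against 25.5% of all genes) were called higher and 6 (31.6%, against 36.2%) lower, with a median of -0.025. Tm7sf2, a sterol reductase, rose by 2.12, and Mvd, of the mevalonate branch, fell by 1.37 on the log2 scale. In fatty acid synthesis and binding, the acetyl-CoA synthetase Acss1 (4.98), the desaturase Scd1 (2.65) and Fabp7, the fatty acid binding protein of radial glia (4.56), rose and held.

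Nucleotide synthesis ran the other way. Of 30 tested genes, 25 (83.3%, against 36.2% of all genes) were called lower in NEPs and 0 higher, with a median of -0.53 (-0.50 on arrays 3 and 4). The falls were small: 9 reached 2-fold and 6 of these held. Tk1, the thymidine kinase of dividing cells, read 7.03, 6.67, 7.11 and 7.28 on NEP arrays and 8.41, 8.61, 8.44 and 8.48 on GNP arrays, so that the groups did not overlap, and it fell by 1.47 on the log2 scale (SE 0.13, adjusted p = 3.58e-05). Impdh1, a gatekeeper of guanine nucleotide synthesis, fell by 1.33, Tyms, which makes thymidylate, by 1.31, and Ppat, which opens purine synthesis, by 1.30. Tk1, Impdh1 and Tyms held, while Ppat differed by -0.97 on arrays 3 and 4 and, over the mean of all its probe sets, by -0.72. Cell cycle genes had a median per array of 8.95, 8.93, 9.29 and 9.18 for NEPs and 9.64 to 9.86 for GNPs. The part of a lower share of dividing cells in the nucleotide genes was not tested.

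One-carbon metabolism, which feeds nucleotide synthesis, was divided. Aldh1l1, the folate dehydrogenase used as an astrocyte marker, read 9.94, 10.07, 10.40 and 10.53 against 2.53 to 3.01 and rose by 7.47 (SE 0.16, adjusted p = 1.31e-08). Cbs, which makes cystathionine, rose by 4.82, and Phgdh, which opens serine synthesis, by 1.44. The folate enzymes Mthfd1l, Shmt1 and Mthfd2 fell by 1.38, 1.31 and 1.10 on the log2 scale, and Mthfd2 differed by -0.84 on arrays 3 and 4. Over the list 5 of 22 genes (22.7%, against 25.5% of all genes) were called higher and 10 (45.5%, against 36.2%) lower. Of 85 respiratory chain subunits tested, 3 (3.53%, against 25.5% of all genes) were called higher and 29 (34.1%, against 36.2%) lower, with 1 each way at least 2-fold, of which the lower held, and a median of -0.14 against -0.13. Beside it Pdk4, which turns pyruvate away from the citric acid cycle, rose by 3.47, and the malic enzyme Me1 by 2.63. Pdk1, of the same kinase family, read 5.79, 5.33, 3.22 and 3.95 against 2.80 to 3.32. NEP array 3 lay within the GNP range, and the difference of 1.50 fell to 0.52 on arrays 3 and 4, where it was not called (adjusted p = 0.0898), nor was it when any 1 of the other 6 arrays was left out (adjusted p from 0.0533 to 0.0823).

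Amino acid, redox and lipid mediator enzymes rose in part. Abat, which breaks down GABA, rose by 2.95, while Asns and Bcat1, for asparagine synthesis and branched-chain amino acids, fell by 1.26 and 1.58 on the log2 scale. Glutathione and antioxidant genes were called at least 2-fold higher in 12 of 42 and lower in 4, with 10 and 1 holding, led by the glutathione transferases Gsta4 (3.70) and Mgst1 (3.13). Cyp26b1, which degrades retinoic acid, read 9.20, 8.75, 10.17 and 9.97 against 2.29 to 2.71 and rose by 7.07 (SE 0.30, adjusted p = 3.05e-07). Pla2g7, which inactivates platelet-activating factor, and the lipid phosphatase Plpp3 rose by 8.25 and 6.82, evenly over the NEP arrays (10.48 to 10.69 and 10.93 to 11.44). Ugt8a, a galactolipid enzyme of myelinating cells, read 9.75, 9.86, 6.81 and 6.67 against 5.78 to 6.10, with 0.75 left on arrays 3 and 4 of its difference of 2.28. Its call was lost when any 1 of the 4 GNP arrays or of NEP arrays 1 and 2 was left out (adjusted p from 0.0548 to 0.0655).

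**Figure D3:**
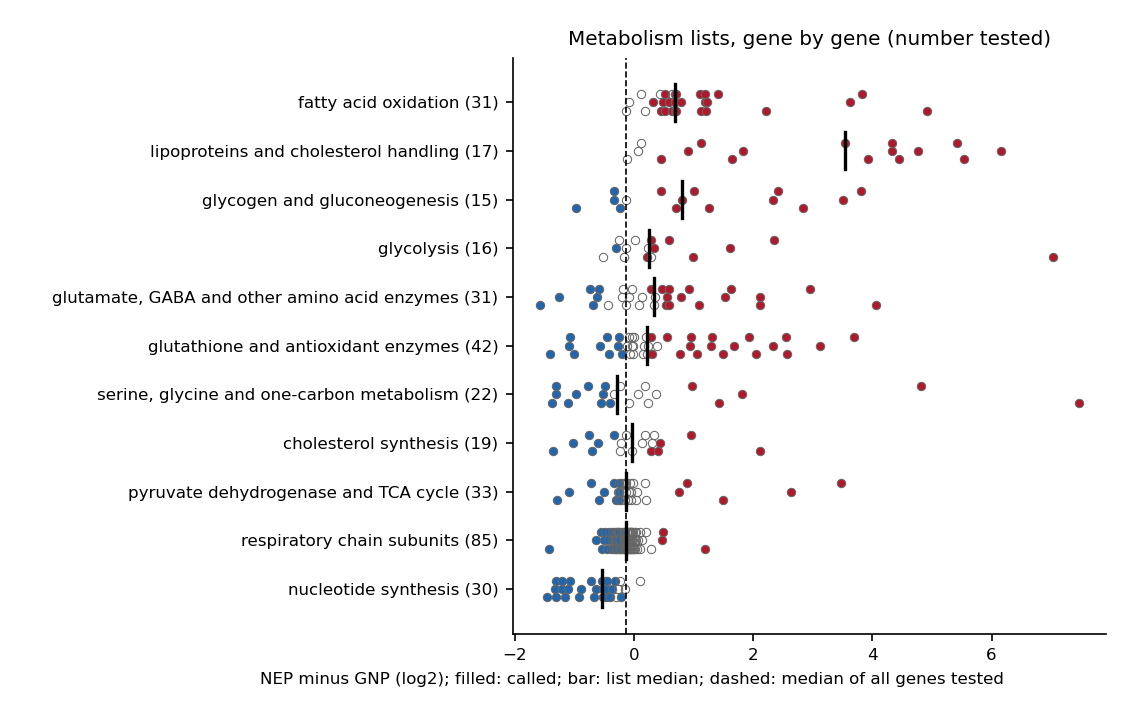
NEP minus GNP difference (x axis, log2) of every tested gene of 11 metabolism lists (y axis), filled red where called higher, filled blue where called lower and open where not called; the bar is the list's median and the dashed line the median of all genes, -0.13. Fatty acid oxidation holds no gene called lower and nucleotide synthesis none called higher, while the respiratory chain centres on the dashed line.

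Signalling genes were called at least 2-fold higher in 172 of 455 tested (37.8%) and lower in 61 (13.4%), and 154 and 48 held. Through the Notch pathway neighbouring cells hold each other in the progenitor state, and of its 29 tested genes 15 were called higher, 5 lower and 9 neither way. The receptor Notch3 read 7.94, 8.43, 7.98 and 8.49 against 2.08 to 2.72, and the ligand Dll1 7.25, 7.28, 7.51 and 7.81 against 1.67 to 2.08. The target Hes5, a repressor of neuronal genes, read 7.26, 7.93, 8.06 and 8.55 against 2.27 to 2.75, and was highest on NEP array 4. Hes5 rose by 5.37 (SE 0.25, adjusted p = 5.89e-07), the feedback inhibitor Nrarp by 3.85 and Lfng, a glycosyltransferase that modifies Notch, by 2.58. By at least 2-fold 12 were called higher, of which 10 held, and 4 lower, all of which held. The falls were the target Hey1, the ligand-like Dner, the Notch antagonist Numbl and the glycosyltransferase Mfng, with differences of -1.78, -1.90, -2.03 and -2.09.

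The promoters of 3 of the called Notch genes are shown because RBPJ, the factor through which Notch acts on its targets, has a known core motif that can be read in them. Each is the 250 bases before the gene's start, 5′ to 3′ on the gene's strand, from RefSeq on GRCm38.p6, searched for TGGGAA on both strands, with each match (TGGGAA or its reverse complement TTCCCA) in capitals. They are Hes5 at chr4:154960673-154960922, Lfng at chr5:140607091-140607340 and Nrarp at chr2:25180508-25180757, all on the plus strand.
Hes5: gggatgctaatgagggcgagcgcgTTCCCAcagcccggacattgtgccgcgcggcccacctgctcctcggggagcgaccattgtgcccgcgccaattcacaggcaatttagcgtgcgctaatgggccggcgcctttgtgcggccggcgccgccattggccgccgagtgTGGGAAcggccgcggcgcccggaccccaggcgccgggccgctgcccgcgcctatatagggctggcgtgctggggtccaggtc
Lfng: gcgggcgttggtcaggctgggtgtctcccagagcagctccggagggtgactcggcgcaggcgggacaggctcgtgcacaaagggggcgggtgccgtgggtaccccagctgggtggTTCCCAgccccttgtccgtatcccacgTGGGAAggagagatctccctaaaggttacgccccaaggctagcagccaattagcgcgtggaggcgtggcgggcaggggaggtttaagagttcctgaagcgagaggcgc
Nrarp: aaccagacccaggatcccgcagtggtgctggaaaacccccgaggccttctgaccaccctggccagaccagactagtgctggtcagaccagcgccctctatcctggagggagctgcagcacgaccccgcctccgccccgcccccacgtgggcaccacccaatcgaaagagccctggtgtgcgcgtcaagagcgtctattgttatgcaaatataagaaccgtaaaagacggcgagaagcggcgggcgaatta
Hes5 and Lfng hold 2 matches each, and Nrarp, which rose by 3.85, holds none in this window. The motif occurs in 21.6% of all 32851 promoters of this length in the table. Among the tested Notch pathway genes 25 of 29 had an entry and 5 held a match, and Hes1, Hey1, Mfng and Mib1 had no entry. A match is a description of the letters and does not show that RBPJ binds there.

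Fgfr2, Fgfr1 and Fgfr3, receptors of fibroblast growth factors, rose by 4.60, 3.08 and 2.89. The feedback inhibitors Spry1 and Spry2 rose by 4.25 and 2.94, and Etv5 and Etv4, transcription factors that FGF signals switch on, by 3.61 and 2.98. Fgfr2 read 7.55, 7.43, 7.55 and 7.98 on NEP arrays and 2.80 to 3.24 on GNP arrays, and Etv5 8.52, 8.79, 8.91 and 8.79 against 4.94, 4.60, 5.21 and 5.83. Neither pair of groups overlapped. The ligand Fgf9 was higher in GNPs, at 6.30 to 6.62 against 3.11, 3.14, 3.71 and 3.64, a difference of -3.002 (SE 0.16, adjusted p = 1.43e-06). Of 27 FGF genes tested, 12 were called at least 2-fold higher, all holding, and 6 lower, of which 4 held. Among other growth factor genes, Ptprz1, a receptor phosphatase of glial progenitors, rose by 6.54 and the receptor Axl by 5.26. The neurotrophin receptor Ngfr fell by 3.40 and the IGF binding protein Igfbp5 by 2.90 on the log2 scale. Igf2 read 11.88, 11.88, 8.56 and 7.92 against 4.18 to 5.73, high on NEP arrays 1 and 2, where pericyte and meningeal markers were also high. Its difference of 5.37 was 3.55 on arrays 3 and 4.

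BMP and TGF-beta genes were called higher far more often than lower. Gdf10, a growth factor of Bergmann glia, read 11.54, 11.61, 11.66 and 12.02 against 3.47, 3.89, 3.55 and 5.08, and its difference was 7.71 (SE 0.33, adjusted p = 3.51e-07). The inhibitors of differentiation Id4 and Id3, which BMP signals switch on, read 10.32, 10.24, 10.30 and 10.57 against 2.98 to 3.31 and 9.56, 9.19, 9.56 and 10.12 against 2.11 to 2.90. They were even over the 4 NEP arrays and rose by 7.20 and 7.10. Rgma, a BMP coreceptor, and the signal transducer Smad3 rose by 5.68 and 3.56, while Chrd, the secreted BMP antagonist chordin, fell by 3.68 on the log2 scale (SE 0.18, adjusted p = 7.56e-07). Of 49 tested genes 19 were called at least 2-fold higher and 3 lower, with 18 and 3 holding. Tgfbi, a matrix protein that TGF-beta induces, was among the most uneven, at 9.03, 9.17, 4.93 and 2.83 against 1.38 to 2.01, a difference of 4.73 over all NEP arrays and of 2.12 on arrays 3 and 4.

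Wnt genes went both ways. Wnt5a read 8.09, 8.22, 8.23 and 8.14 against 2.92 to 3.27, a difference of 5.11 (SE 0.099, adjusted p = 8.9e-09). The secreted inhibitor Wif1 and the Dickkopf relative Dkk3 rose by 5.56 and 5.80, and the receptor Fzd9 by 4.02. Sfrp1, another secreted Wnt binder, read 5.92, 5.99, 6.47 and 6.62 against 10.75, 10.80, 10.75 and 10.36 and fell by 4.41 on the log2 scale (SE 0.18, adjusted p = 2.61e-07), while the receptors Fzd7 and Ror1 fell by 2.16 and 1.96. Over the mean of all its probe sets Ror1 differed by -0.76. So secreted inhibitors and receptors each stood on both sides. Of 46 tested genes 15 were called at least 2-fold higher and 7 lower, and 13 and 7 held. Of 26 Hippo pathway genes tested 15 were called higher and 2 lower. By at least 2-fold it was 12 (46.2%) higher, of which 11 held, and 0 lower. The coactivators Wwtr1 (TAZ) and Yap1 read 8.75, 8.84, 8.56 and 8.64 against 3.85 to 4.79 and 7.65, 7.65, 7.51 and 7.59 against 4.87 to 5.06, and their target Ccn1 rose by 3.52.

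G protein-coupled receptors gave large differences in both directions. Ednrb, the endothelin receptor of Bergmann glia, and the sphingosine phosphate receptor S1pr3 read 10.23, 11.03, 11.05 and 11.10 against 1.996, 2.25, 2.28 and 4.17 and 10.11, 10.03, 9.71 and 10.07 against 1.83, 2.05, 2.13 and 2.79. Grm3, a metabotropic glutamate receptor of astrocytes, read 9.67, 9.65, 10.37 and 10.56 against 1.97 to 2.49 and rose by 7.87 (SE 0.23, adjusted p = 4.47e-08), and the glial receptor Gpr37l1 by 6.91. The adhesion receptor Adgrg6 rose by 6.25, and was higher on NEP arrays 3 and 4 than on 1 and 2 (7.21, 7.47, 8.39 and 8.99). The somatostatin receptor Sstr2 read 2.13, 2.84, 6.01 and 5.27 against 8.93 to 9.13 and fell by 4.93 on the log2 scale, or by 3.35 on arrays 3 and 4. Cnr1, the cannabinoid receptor of neurons, read 6.33, 6.23, 7.97 and 8.05 against 7.96 to 8.80. NEP arrays 3 and 4 lay within the GNP range, and the difference of -1.23 (adjusted p = 0.0414) was -0.37 and not called on arrays 3 and 4 (adjusted p = 0.177). It was not called either when any 1 of the 4 GNP arrays or of NEP arrays 1 and 2 was left out (adjusted p from 0.0511 to 0.101), with no filter on low values (adjusted p = 0.0567) or with a variance trend and robust fit (adjusted p = 0.0528). Among second messenger enzymes the guanylyl cyclase subunit Gucy1a1 rose by 6.96 and the adenylyl cyclase Adcy8 by 4.67, while the phosphodiesterase Pde1c and Adcy1 fell by 4.29 and 2.36 on the log2 scale.

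Guidance genes differed by family member. Of 30 semaphorins, plexins and neuropilins tested 11 (36.7%) were called at least 2-fold higher and 6 (20%) lower, and 10 and 6 held. Among them Sema5b rose by 4.27, Sema4f fell by 4.36, Sema7a fell by 3.24 and Sema3g fell by 2.73 on the log2 scale. The netrins Ntn4 and Ntn1 fell by 2.90 and 2.68 on that scale. Of 20 netrin, Slit, Robo and related genes tested 9 (45%) were called at least 2-fold lower, of which 7 held, and 5 (25%) higher, of which 3 held. Without GNP array 2, and without NEP array 1, 3 were higher. Cytokine genes included Il33 and Il18, which read 7.39, 7.34, 6.67 and 7.41 against 1.58 to 1.99 and 6.97, 6.81, 6.45 and 6.77 against 1.98 to 2.80. Both stayed within a log2 unit over the 4 NEP arrays, and rose by 5.41 and 4.32. Interferon-induced genes had a median difference of 0.97 over all NEP arrays and of 0.084 on arrays 3 and 4. Ifitm1, at 5.89, 6.04, 3.58 and 3.86 against 2.80 to 3.75, overlapped on NEP array 3, and its difference of 1.63 was 0.51 and not called on arrays 3 and 4 (adjusted p = 0.116). Leaving out 1 of GNP arrays 1, 3 and 4 or NEP arrays 1 and 2 also ended its call (adjusted p from 0.0691 to 0.0886), as did testing with no filter on low values (adjusted p = 0.0504).

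Transcription factors were called at least 2-fold higher in 98 of 321 tested (30.5%) and lower in 46 (14.3%), with 91 and 35 holding. Of 16 Sox factors tested 12 were called higher and 1 lower, and 10 (62.5%) were called at least 2-fold higher, all holding, and 0 at least 2-fold lower. Sox2 and Sox1, factors of neural stem cells, read 10.28, 10.79, 10.68 and 10.90 against 5.73, 4.74, 5.95 and 5.57 and 9.27, 9.47, 9.54 and 9.70 against 3.41 to 3.97. Sox8 and Sox6 rose by 5.63 and 4.86.

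Factors of the basic helix-loop-helix family that choose between neuronal fates stood on opposite sides. Of 20 tested 9 were called higher and 8 lower. By at least 2-fold it was 6 higher, all holding, and 7 lower, of which 4 held. Ptf1a, the selector of GABAergic neurons in the cerebellum, read 9.99, 9.94, 10.14 and 10.51 on NEP arrays and 2.05, 2.15, 2.04 and 2.05 on GNP arrays, a difference of 8.07 (SE 0.13, adjusted p = 4.57e-09). Neurog2 and Neurog1 read 7.76, 8.14, 8.28 and 8.33 against 1.78 to 1.996 and 6.12, 6.43, 7.67 and 6.98 against 1.63 to 1.79. All 3 were even or higher on arrays 3 and 4. Olig1, of the oligodendrocyte lineage, read 10.56, 10.51, 10.05 and 9.51 against 2.43 to 3.42. On the other side, next to Atoh1, stood Neurod1, which drives granule neuron differentiation, at 7.96, 8.22, 10.94 and 10.32 against 12.22 to 12.26, Nhlh1 at 2.87, 3.35, 5.16 and 4.71 against 7.54 to 8.16 and Neurod6 at 1.94, 1.76, 5.30 and 2.80 against 6.02 to 7.09. Neurod1 differed by -2.88 (SE 0.63, adjusted p = 0.00444), and by -1.61 on arrays 3 and 4. Neurod2, at 4.45, 4.46, 6.56 and 4.91 against 6.45 to 7.02, overlapped on NEP array 3, and its difference of -1.72 was -1.08 and not called on arrays 3 and 4 (adjusted p = 0.0548).

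Homeobox factors went both ways. Of 55 tested 18 were called at least 2-fold higher and all held, and 12 were called at least 2-fold lower and 7 held. Nkx2-2, a factor of ventral and oligodendrocyte progenitors, and Hopx, a marker of astroglial progenitors, read 8.92, 8.90, 8.20 and 8.71 against 1.48 to 2.01 and 9.70, 9.57, 9.48 and 9.98 against 2.65 to 3.26. Irx3 rose by 4.75. Tlx3, a selector of glutamatergic neurons, fell by 3.54 on the log2 scale, with little spread over the NEP arrays (1.67 to 2.13 against 5.28 to 5.55). Uncx and Barhl2 were higher on NEP arrays 3 and 4: Uncx read 2.51, 2.25, 7.34 and 6.75 against 10.07 to 10.19 and Barhl2 2.24, 2.24, 5.85 and 4.21 against 7.48 to 7.88. Their differences of -5.41 and -4.08 were -3.08 and -2.69 on arrays 3 and 4. Otx2, at 4.59, 4.13, 8.45 and 7.40 against 8.58 to 9.05, differed by -2.70 over all NEP arrays and by -0.92 on arrays 3 and 4 (adjusted p = 0.0231). Its call over the 8 arrays (adjusted p = 0.0283) was lost without any 1 of the GNP arrays or of NEP arrays 1 and 2 (adjusted p from 0.0527 to 0.0699). En1, a factor of the midbrain and hindbrain, at 2.34, 2.28, 3.72 and 3.16 against 3.60 to 4.80, overlapped on NEP array 3. Its difference of -1.36 was -0.80 and not called on arrays 3 and 4 (adjusted p = 0.0634).

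The AP-2 factors Tfap2b, Tfap2c and Tfap2a, of which Tfap2b is known from GABAergic interneurons of the cerebellum, read 8.94, 8.50, 9.33 and 9.28 against 3.14 to 3.22, 7.05, 7.38, 7.14 and 7.86 against 1.86 to 2.11 and 8.34, 8.50, 9.48 and 8.55 against 4.24 to 4.62. They rose by 5.84, 5.40 and 4.31, and held. Klf15 and the retinoid-related receptor Rorb rose by 4.32 and 3.94. The repressor Rest, which silences neuronal genes outside neurons, read 6.29, 6.38, 6.03 and 6.13 against 3.005, 2.97, 3.17 and 3.61 and rose by 3.02 (SE 0.16, adjusted p = 1.09e-06). Of 45 zinc finger factors of neuronal and glial fate tested, 10 were called at least 2-fold higher and 14 lower, and 8 and 12 held. Insm2, Prdm8 and Ebf3, each known from differentiating neurons, fell by 3.48, 4.17 and 4.20 on the log2 scale, the last from 10.04 to 10.21 in GNPs to 4.23, 4.22, 8.11 and 7.11 on NEP arrays 1 to 4. On arrays 3 and 4 the difference of Ebf3 was -2.51. E2f2 and E2f1, factors of the cell cycle, fell by 2.07 and 1.94, while Myc read 6.23, 6.18, 5.97 and 6.30 against 3.53 to 4.04 and rose by 2.36 (SE 0.13, adjusted p = 1.31e-06). Over the E2F and Myc list 13 of 20 genes were called lower (65%), 3 higher and 4 neither way, and by at least 2-fold 4 were lower, all holding.

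Adhesion and matrix genes were called at least 2-fold higher in 60 of 123 tested (48.8%) and lower in 9, and 56 and 6 held. Matrix proteins led by number of genes. Of 32 laminins, tenascins, lecticans, syndecans and related genes tested 24 (75%) were called at least 2-fold higher, and all of them held. At least 2-fold lower were 2 (6.25%), of which 0 held. Sparcl1, a secreted protein of astrocytes that promotes synapses, read 12.02, 12.13, 11.86 and 12.23 against 4.14, 4.29, 3.88 and 5.81, a difference of 7.53 (SE 0.38, adjusted p = 8.84e-07). Nid1, a linker of basement membranes, read 10.51, 10.81, 10.51 and 10.36 against 3.19, 2.83, 3.08 and 4.26. For both genes GNP array 4 stood above the other GNP arrays and below every NEP array. Gpc2, a glypican of developing axons, fell by 1.51 on the log2 scale, or by 0.90 on arrays 3 and 4.

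All 10 tested protocadherins outside the gene clusters, of 12 on the array, were called higher, 9 of them by at least 2-fold, and these 9 held. Pcdh20 read 6.80, 6.93, 7.37 and 7.72 against 1.96 to 2.62 and Pcdh10 5.86, 6.56, 6.81 and 6.84 against 2.79 to 3.09, and they rose by 5.001 and 3.57. Cdh11, a cadherin known from mesenchyme, read 9.42, 9.63, 9.52 and 9.71 against 2.77, 3.03, 3.27 and 4.14. The endothelial cadherin Cdh5, at 6.04, 6.05, 3.13 and 4.14 against 1.47 to 2.27, was highest on NEP arrays 1 and 2, with a difference of 3.15 over all and 1.95 on arrays 3 and 4. Of 15 integrins tested, 6 (40%, against 14.3% of all genes) were called at least 2-fold higher, of which 4 held. At least 2-fold lower was 1, which held, and 2 were lower without GNP array 2, NEP array 2 or NEP array 4. The list's median difference was 0.80 over all NEP arrays and -0.0087 on arrays 3 and 4. Among integrins, Itgb8 and Itga6 rose by 3.97 and 2.42, and Itga7 fell by 1.74 on the log2 scale. Adhesion proteins of axons split: Chl1 and Opcml rose by 5.90 and 5.40, while Cntn2, an axonal glycoprotein of young granule neurons, and L1cam fell. Cntn2 read 3.06, 3.18, 7.77 and 6.51 against 10.10 to 10.19, and L1cam 4.41, 4.50, 6.81 and 6.16 against 9.19 to 9.36. Both were higher on NEP arrays 3 and 4, where their differences of -5.01 and -3.80 were -3.005 and -2.79.

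**Figure D4:**
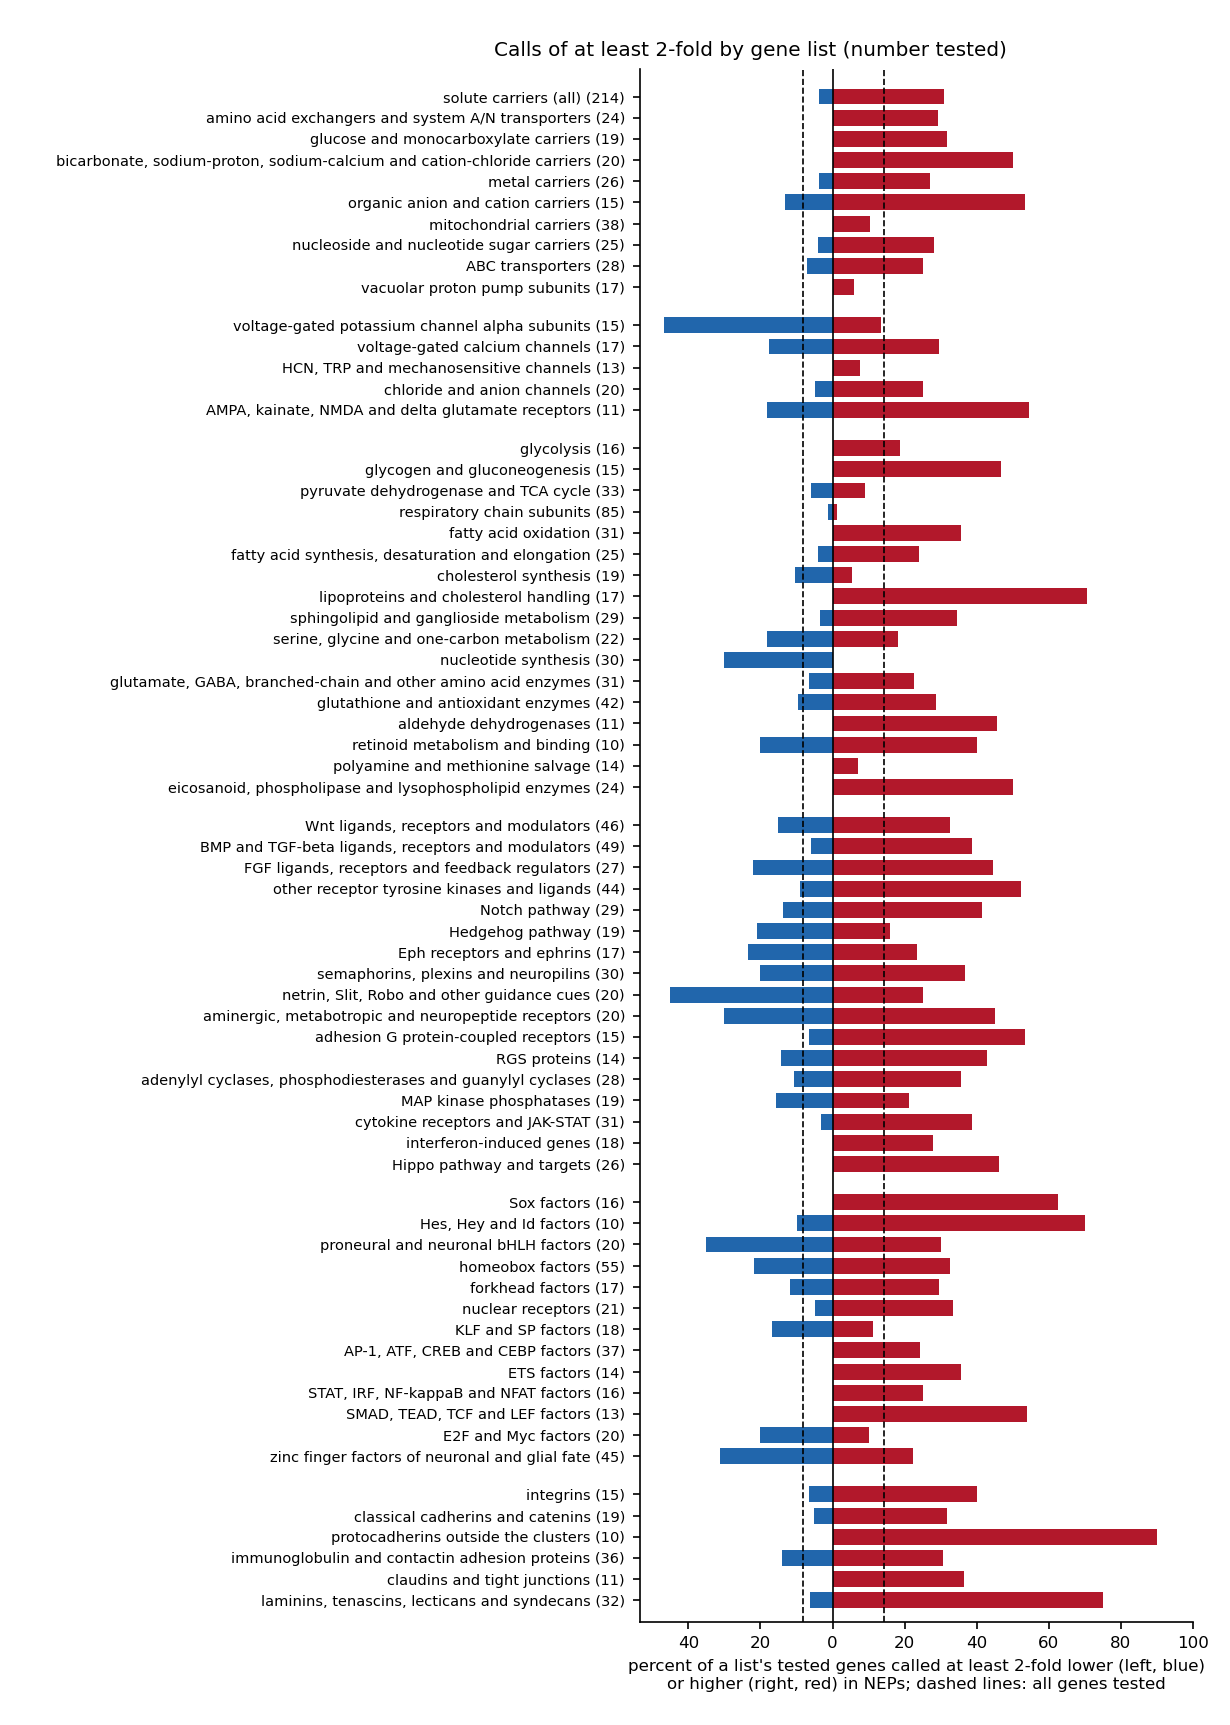
Percent of each list's tested genes (number in brackets) called at least 2-fold higher in NEPs (right, red) or lower (left, blue), for lists with 10 or more genes tested (the list that pools all potassium channels is not drawn), in blocks of transporters, ion channels, metabolism, signalling, transcription factors, and adhesion and matrix. The dashed lines give the shares over all genes, 14.3% higher and 8.17% lower; voltage-gated potassium channels, netrins with related cues and proneural factors reach furthest left, and protocadherins, matrix proteins and lipoprotein genes furthest right.

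Over the genes tested, the split of the NEP arrays changed sizes more than calls. The filter fixes part of this, since genes that reached the array median on NEP arrays 1 and 2 only were not tested. Of the 19 microglia and macrophage markers on the array, 6 were tested. Of the 1649 genes called at least 2-fold higher, 30 were not called in the same direction on NEP arrays 3 and 4, and of the 941 called at least 2-fold lower, 8 were not. The differences from GNPs on arrays 1 and 2 and on arrays 3 and 4 lay within 2-fold of each other for 72.6% of the higher and 82.1% of the lower genes. Among the lower genes the difference was larger on arrays 1 and 2 for 779. That holds for Atoh1, Barhl1, Uncx, Neurod1, Slc17a6 and Sstr2, whose levels on arrays 3 and 4 lay between those of arrays 1 and 2 and those of GNPs, but not for Slc29a1, at -3.31 on arrays 1 and 2 and -3.63 on arrays 3 and 4. GNP array 4 was the highest GNP array for some of the higher genes, among them Aqp4, Gdf10 and Ednrb. The median of Bergmann glia and astrocyte markers was also highest on it (4.67 against 3.18 to 3.40 on the other GNP arrays). So was the median of all genes tested (6.56 against 6.51 to 6.54). The cause was not tested.

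**Figure D5:**
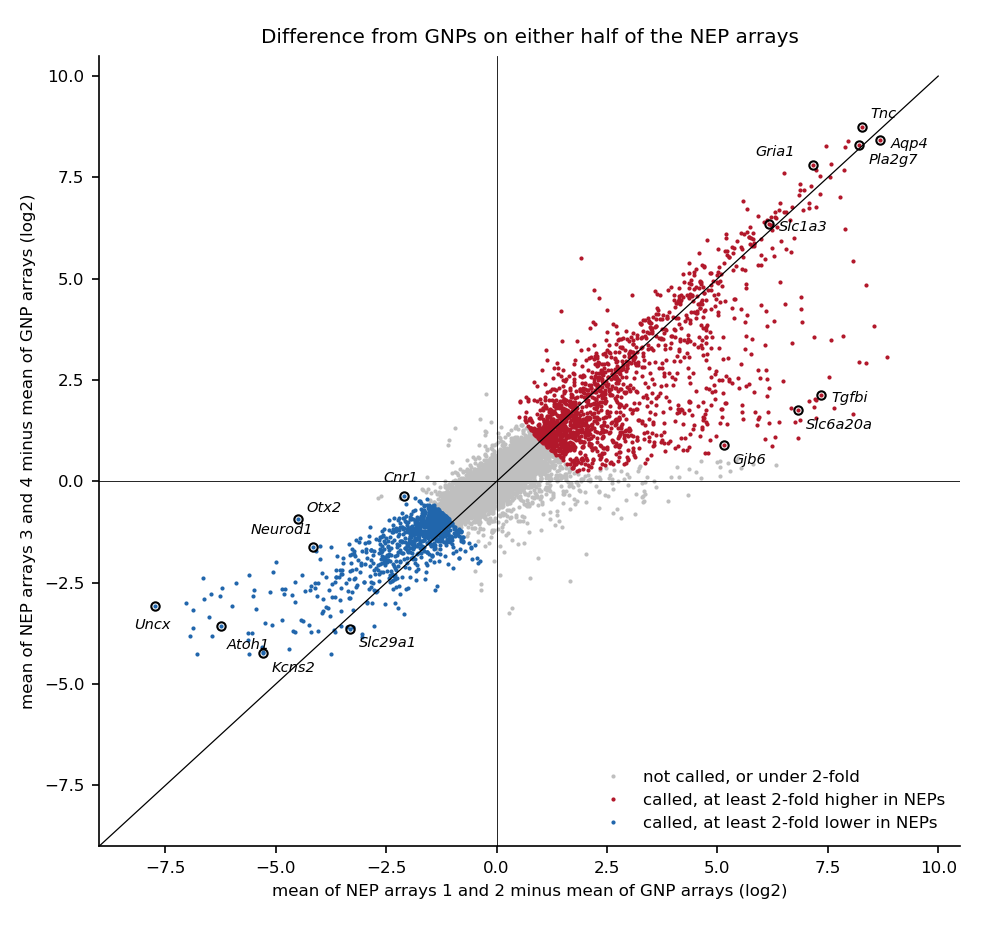
Each point is 1 of the 11512 genes tested, with its difference from the GNP arrays on NEP arrays 1 and 2 (x axis, log2) and on NEP arrays 3 and 4 (y axis, log2), and the diagonal marks equal differences. Tnc, Aqp4 and Slc1a3 lie near the diagonal, while Slc6a20a, Tgfbi and Gjb6 lie far below it and Otx2 and Neurod1 above it.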

How the data were processed

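Expression was measured on Affymetrix Mouse430 2.0 arrays. The authors deposited log2 values per probe set, and the submitters' processing notes name RMA and Affymetrix Expression Console without versions. With 4 arrays in each group, the number of arrays limits the precision. Of 45101 probe sets, 64 controls were left out, 34945 have 1 gene symbol, 932 several and 9160 none, and 34741 matched by gene ID. A gene is read from its brightest probe set by mean signal over the series. Genes at or above the array median on at least 4 of the 8 arrays were tested with limma 3.58.1 in R 4.3.3 (lmFit and eBayes, two-sided), with Benjamini-Hochberg adjustment over all 11512. The procedure was tested on simulated data.

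The members and the 100 gene lists were chosen with earlier results of these data known, and 5 symbol patterns were corrected after the values were read. Named genes are Tnc, Nes, Atoh1, Barhl1 and, per list, up to 4 called at least 2-fold higher and 4 lower with the largest differences and the 2 largest not held on NEP arrays 3 and 4. Atp1b3, Fgfr3, Lfng, Mib1, Nrarp, Otx2, Spry2, Tgfbi and Yap1 were added after their values were seen. Alternatives were the NEP arrays used, all 19 arrays in the fit, the replicate number, probe sets, filters, normalization, the variance model and each array left out.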

Additional observations from a re-analysis of the deposited data

Results flagged for a closer look

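In 446 groups of 4 arrays, 1 per gene named and marker list and group, the highest or lowest array stood apart from the others by more than Dixon's 95% critical value for the gap over the range allows in 25. Chance flags about 1 such group in 20. GNP array 4 was the array in 11 of them, and values below are log2 signals with the range of the other 3 arrays of the group. On GNP array 4 Aqp4 read 4.67 (2.09 to 2.12), Cdh5 read 2.27 (1.47 to 1.51), Cpt1a read 3.65 (3.10 to 3.19) and Ednrb read 4.17 (2.00 to 2.28). There Fzd7 read 8.49 (8.31 to 8.33), Gsta4 read 4.43 (3.70 to 3.80), Olig1 read 3.42 (2.43 to 2.60) and Sfrp1 read 10.36 (10.75 to 10.80). On the same array Slc40a1 read 3.02 (2.36 to 2.47), the median of pericyte, fibroblast and meningeal markers read 3.03 (2.38 to 2.45) and the median of Bergmann glia and astrocyte markers read 4.67 (3.18 to 3.40). On GNP array 2 Axl read 1.82 (1.51 to 1.56), Kcnj10 read 2.22 (1.72 to 1.80), Ptf1a read 2.15 (2.04 to 2.05) and Slc4a4 read 3.12 (3.74 to 3.83). On NEP array 4 Grin3a read 8.15 (7.48 to 7.55), Klf15 read 7.07 (6.33 to 6.34) and Mgst1 read 11.02 (10.69 to 10.74). On NEP array 1 Ednrb read 10.23 (11.03 to 11.10) and Gabrg1 read 6.21 (6.77 to 6.81). On NEP array 3 Il33 read 6.67 (7.34 to 7.41) and Itga7 read 4.62 (4.75 to 4.76). On GNP array 3 Ntn1 read 9.39 (9.24 to 9.25) and Slc12a4 read 4.27 (3.91 to 3.96). On GNP array 1 Gja1 read 9.56 (9.43 to 9.44). The cause was not tested for any of them.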

How the results depend on the processing

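The count of genes called, 7111, lay between 6169 and 7286 when each array was left out in turn. The genes called at least 2-fold numbered 1572 to 1786 higher (main value 1649) and 854 to 1075 lower (941). Over the classes the ranges were 83 to 96 transporters (89), 53 to 59 ion channels (56), 127 to 138 metabolism genes (133), 219 to 249 signalling genes (233) and 139 to 152 transcription factors (144). A filter at the 75 percentile of the array, which tests 7327 genes in place of 11512, left 814 genes at least 2-fold higher, 49 transporters, 31 ion channels, 149 signalling genes and 86 transcription factors; no other setting moved any of these counts by over 1.5 times.

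No named gene changed direction under any setting. The mean of all probe sets of a gene kept the direction and the call of each of the 210 named genes it tested, but 56 of their differences were smaller by over 1.5 times, and the cause was not tested. Under it Acss1 differed by 1.87 (4.98 from the brightest probe set), Gabrb1 by 2.86 (5.98), Slc6a11 by 2.95 (5.82) and Aldoc by 4.21 (7.02). Chrna7 (-0.93), Cnr1 (-0.65), Kcnq3 (0.70), Ppat (-0.72), Ror1 (-0.76) and Slc1a2 (0.993) then lay below 2-fold. The labels do not say whether a replicate number marks a shared animal, litter or day. In the titles, same-numbered NEP and GNP arrays carry consecutive serial numbers. Deviations of same-numbered NEP and GNP arrays correlated at -0.17, -0.046, 0.066 and 0.089, and 1 of 4 NEP arrays correlated best with its own number. With 4 arrays in each group and the NEP arrays in 2 pairs, these correlations cannot decide whether the numbers pair the arrays. With the replicate number as a block 6460 genes were called, of which 6341 were called the same way without it. A second quantile normalization shifted the median difference of all genes from -0.13 to -0.11. Levels below the array median limit the folds, and the arrays give no measure of their precision other than the spread of 4.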
